A study of Mus musculus with 8 samples.

Results

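The 8 genes described here encode ubiquitin ligases of striated muscle or ligases active in it: Fbxo32, Trim63, Trim54, Trim55, Fbxo40, Asb2, Fbxo31 and Mdm2. They were taken as the rows of the deposited table whose gene symbol equals one of these names, and all 8 were found, among 54429 rows. All 8 also passed the filter on low values, at least 1 RPKM (reads scaled to the length of the gene and to the size of the library) in at least 4 of the 8 libraries, as did 16385 rows in all. None of them was near that limit in either group. RNA came from both ventricles of C57BL/6 mice at postnatal day 35. All mice, controls included, carried floxed alleles of Esrra and Esrrg, which encode the estrogen-related receptors alpha and gamma, nuclear receptors that act on genes of energy metabolism. On postnatal day 0 to 1 they were injected with an adeno-associated virus (AAV). In 4 libraries, labelled AAV-Cre, the virus carried Cre recombinase under the cardiac troponin T promoter, a promoter of cardiomyocytes, so that other cells of the ventricle were not the target. The other 4 libraries, labelled AAV-Luc, came from mice given the luciferase virus. The comparison asks how expression in the growing heart differs when both receptors are targeted.

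Ubiquitin ligases choose the proteins that are tagged with ubiquitin and handed to the proteasome. In striated muscle this is how sarcomere proteins are turned over, and Fbxo32 (atrogin-1) and Trim63 (MuRF1) are best known as genes that go up when skeletal muscle wastes. RING ligases such as the MuRF proteins and Mdm2 bring the ubiquitin-carrying E2 enzyme directly to the substrate, whereas F-box proteins (Fbxo32, Fbxo40, Fbxo31) and SOCS-box proteins (Asb2) are the exchangeable substrate receptors of cullin complexes. FOXO transcription factors are known activators of Fbxo32 and Trim63.

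The groups are called by their labels, because Esrrg goes against them. Esrrg was higher in the libraries labelled AAV-Cre, at 217.9 ± 17.7 against 112.7 ± 5.51 RPKM, and Esrra was 39.05 ± 4.66 against 45.09 ± 3.66 RPKM (SD, n = 4 each), which did not pass as deposited (limma adjusted p = 0.0705) and was lower after centring each library on its median (log2 fold change -0.62, adjusted p = 0.000549). A value for a whole gene does not show whether floxed exons were lost, and every direction below is between libraries so labelled. Library totals implied by the steps between low RPKM values were 48270000 to 61249000, in single reads, so that 1 RPKM stands for 48.3 to 61.2 reads per kilobase. The lowest value of any of the 8 genes, 6.81 RPKM for Fbxo31, corresponds to about 404 reads per kilobase. Library numbers are names in column order, and the labels do not say whether libraries came from separate mice, so the p-values weigh differences against a spread between libraries that may be partly technical.

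Expression of the 8 genes differed in both directions. Of the 8, 4 were called higher in AAV-Cre (Trim63, Trim55, Fbxo40 and Mdm2) and 2 lower (Asb2 and Fbxo31), with limma on log2(RPKM + 0.5) and Benjamini-Hochberg adjustment over all genes tested. Among all 16385 genes tested, 64.4% were called higher and 8.87% lower, 73.3% in all. The share of the 8 called higher was therefore below that of all genes and the share called lower above it, on very few genes. The median log2 fold change of the 8 was 0.24, beside 0.41 for all genes tested. RPKM depends on the total of its library, and the whole distribution was shifted upward in AAV-Cre by that 0.41, a factor of 1.33. With each library centred on its median, none of the 8 was called higher and 3 were called lower (Fbxo31, Asb2 and Fbxo32), against 21.8% and 24.1% of all genes (45.9% in all). At an unadjusted p of 0.05 the centred counts were 0 higher and 4 lower, Trim54 being the one added. The 4 rises are thus rises in RPKM as deposited and were not called relative to the median gene, whereas Asb2 and Fbxo31 were lower on both scales. The lack of a call after centring does not show that these 4 genes moved exactly with the median. In bulk tissue, fewer cells of a type and less RNA per cell cannot be told apart.

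**Figure D1:**
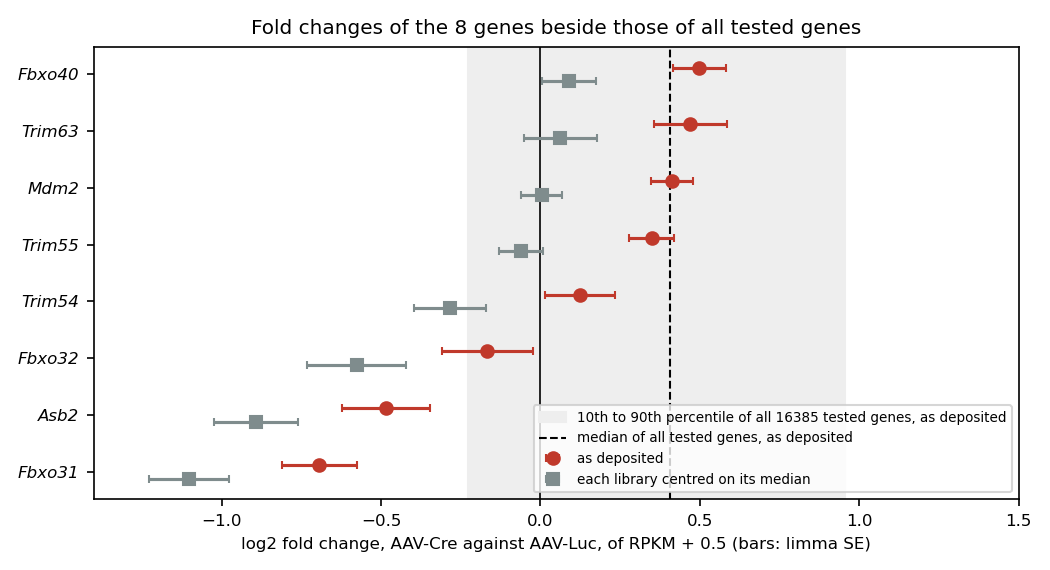
Log2 fold change of each of the 8 genes, AAV-Cre against AAV-Luc, on the log2(RPKM + 0.5) scale, as deposited (circles) and with each library centred on its median (squares); bars are limma standard errors from 4 libraries per group, the dashed line is the median of all 16385 tested genes and the grey band spans their 10th to 90th percentile, both as deposited. Fbxo40, Trim63, Mdm2 and Trim55 sit close to the dashed line and Asb2 and Fbxo31 lie left of the band.

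The stretch before the annotated start is shown for 4 genes, because the motifs searched were present in the first 3 and because the fourth, Fbxo31, fell furthest. RefSeq (GRCm38.p6, the assembly of mm10) gave 8 windows for 6 of the 8 genes (Fbxo32 and Trim55 were not searched), each from 250 bases before to 50 after a start. Each line below holds the 250 bases before the start, 5′ to 3′ on the strand of the gene, with motif matches in capitals.
Trim63, chr4:134314870-134315119, plus strand: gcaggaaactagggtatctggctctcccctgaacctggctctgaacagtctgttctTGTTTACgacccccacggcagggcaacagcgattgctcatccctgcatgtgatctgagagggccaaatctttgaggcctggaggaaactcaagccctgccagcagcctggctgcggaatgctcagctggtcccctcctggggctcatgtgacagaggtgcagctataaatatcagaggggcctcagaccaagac
Mdm2, chr10:117710759-117711008, minus strand: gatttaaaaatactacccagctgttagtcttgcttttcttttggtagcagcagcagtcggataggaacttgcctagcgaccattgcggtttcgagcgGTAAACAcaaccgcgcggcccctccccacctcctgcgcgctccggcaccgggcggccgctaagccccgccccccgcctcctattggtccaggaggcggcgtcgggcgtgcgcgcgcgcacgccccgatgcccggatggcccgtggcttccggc
Asb2, upstream start, chr12:103356002-103356251, minus strand: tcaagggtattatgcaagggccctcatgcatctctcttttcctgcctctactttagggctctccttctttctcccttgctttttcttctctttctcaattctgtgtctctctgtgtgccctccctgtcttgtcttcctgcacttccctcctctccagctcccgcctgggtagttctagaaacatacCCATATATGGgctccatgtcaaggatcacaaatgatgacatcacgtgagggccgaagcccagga
Fbxo31, chr8:121578807-121579056, minus strand: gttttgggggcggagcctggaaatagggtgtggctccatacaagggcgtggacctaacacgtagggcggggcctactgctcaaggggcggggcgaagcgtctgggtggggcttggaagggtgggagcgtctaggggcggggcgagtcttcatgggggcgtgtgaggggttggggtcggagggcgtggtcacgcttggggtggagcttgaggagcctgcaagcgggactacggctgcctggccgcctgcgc
The capitals in Trim63 and Mdm2 are the FOXO core GTAAACA, read on either strand, beginning at positions -194 and -153 relative to the start, and that core is present in 3.65% of 32851 mouse windows of this length. In Asb2 they are a serum response factor CArG box beginning at position -64, present in 1.63% of windows. The core bound by estrogen-related receptors, AAGGTCA on either strand, was in none of the 8 windows and in 4.72% of all. The palindromic site of the glucocorticoid receptor, with all its fixed letters required, was in none of the 8 and in 3 of all windows. With the outermost base on each side left free, a search added after the sequences were seen, the palindrome was present in the Trim63 window, in lower case from position -208 to -196, and in 19 of all windows (0.0578%). No match overlapped another motif. Trim63 and Mdm2, the genes with a FOXO core among the 6 searched, were both higher in AAV-Cre as deposited and neither was called after centring. Fbxo40, searched without a FOXO match, rose the most of the 8 as deposited (log2 fold change 0.50), and 64.4% of all genes tested were called higher. The matches describe letters, not bound sites.

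Trim63, Trim55 and Trim54 encode the muscle RING-finger proteins MuRF1, MuRF2 and MuRF3, which sit on titin and microtubules in the sarcomere. Trim63, on chromosome 4 from 134315120 to 134329629 (mm10, plus strand), measured 114.9, 102.9, 137.1 and 111.9 RPKM in AAV-Cre libraries 1 to 4. In AAV-Luc libraries 1 to 4 it measured 82.6, 100.8, 80.9 and 72.5 RPKM. The groups did not overlap, but the highest AAV-Luc library, the second, came within a few RPKM of the lowest AAV-Cre library. The means were 116.7 ± 14.5 and 84.2 ± 11.9 RPKM (SD, n = 4 each), with a log2 fold change of 0.47 (SE 0.11, limma adjusted p = 0.00437). The two-sided permutation test, exact over the libraries, gave 0.0286, the lowest p possible with 4 against 4. After centring its log2 fold change was 0.06 (adjusted p = 0.688), so the rise of Trim63 as deposited was close to the shift of all genes.

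Trim55, on chromosome 3 from 19644474 to 19692421, measured 61.2, 51.9, 55.5 and 58.3 RPKM in the AAV-Cre libraries and 48.5, 43.3, 42.6 and 43.2 RPKM in the AAV-Luc libraries. Every AAV-Cre value was above every AAV-Luc value, and AAV-Luc library 1 stood above its 3 fellows. The log2 fold change of 0.35 (SE 0.07, limma adjusted p = 0.00158) turned to -0.06 after centring (adjusted p = 0.513). Trim54, on chromosome 5 from 31116712 to 31137630, measured 54.2, 52.8, 64.0 and 44.1 RPKM in AAV-Cre against 48.9, 54.9, 47.6 and 44.5 RPKM in AAV-Luc. The 2 groups were interleaved, with the lowest value of all 8 libraries in AAV-Cre, and the difference of 0.12 on the log2 scale (SE 0.11) was not called (limma adjusted p = 0.328; exact permutation p = 0.429). After centring it was -0.28 (adjusted p = 0.0654), again without a call. In GENCODE, 26.6% of the exon bases of Trim54 are shared with the antisense gene Gm15469, and whether the counting used strand is not given in the sources used here, so Trim54 reads cannot be fully separated. Levels can be compared between the 3 MuRF genes because RPKM is per length, although the gene lengths used by the authors are not given. Of their summed RPKM, Trim54 held 23.6% ± 2.17 in AAV-Cre and 27.6% ± 0.29 in AAV-Luc (SD, n = 4 each; two-sided exact permutation p = 0.0286, 1 of 3 shares tested). The AAV-Luc libraries all lay between 27.2 and 27.8%, whereas those of AAV-Cre ranged from 20.6 to 25.4%. Trim63 held 51.3% ± 1.86 against 47.3% ± 2.42 (exact permutation p = 0.0857) and Trim55 25.1% ± 2.50 against 25.1% ± 2.47 (exact permutation p = 0.943). The sum itself was 227.2 ± 21.8 RPKM in AAV-Cre and 177.6 ± 16.4 in AAV-Luc.

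**Figure D2:**
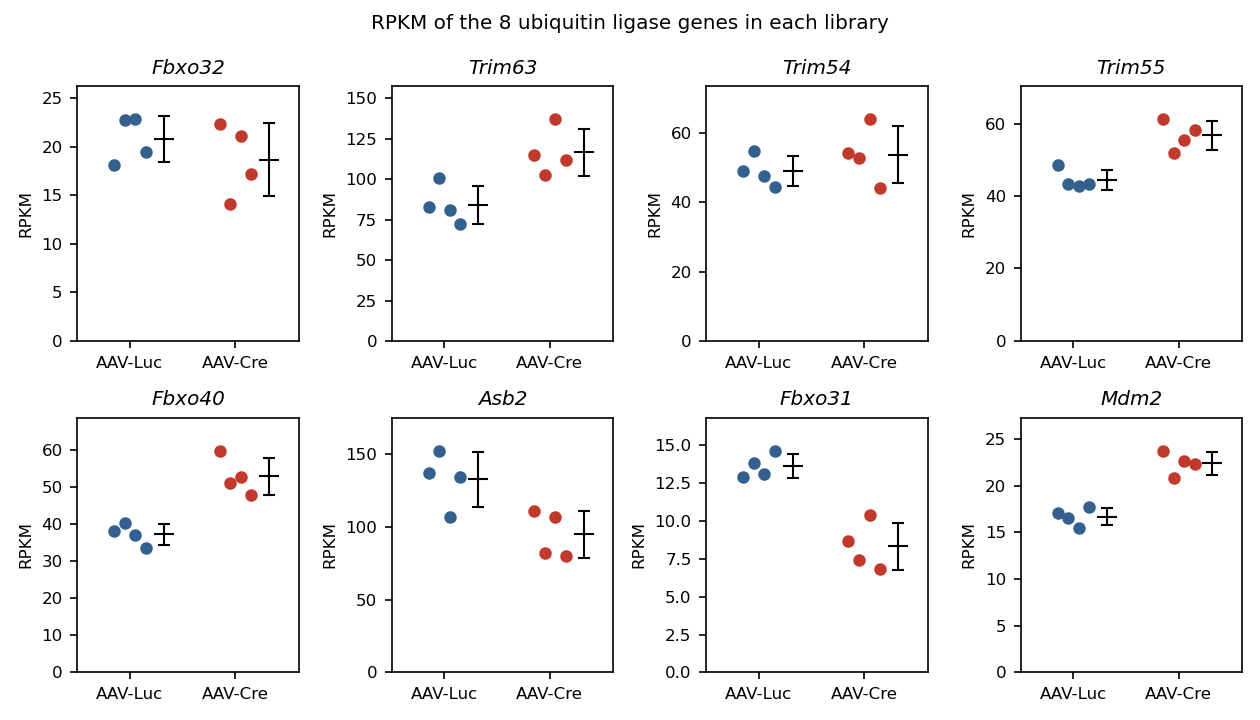
RPKM of each gene in each library (points), with the mean and SD of the 4 libraries of each group beside them, on axes that start at 0. Fbxo31 is lower in all 4 AAV-Cre libraries, Trim63, Trim55, Fbxo40 and Mdm2 are higher in all 4 (as deposited; after centring none of these was called and Trim55 turned to -0.06), and Fbxo32, Trim54 and Asb2 overlap between groups.

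Fbxo32, Fbxo40 and Fbxo31 encode F-box proteins, which plug into the Skp1 and Cul1 core. Fbxo32, on chromosome 15 from 58175879 to 58214932 (minus strand), is the receptor atrogin-1. It measured 22.4, 14.1, 21.05 and 17.2 RPKM in AAV-Cre and 18.1, 22.7, 22.8 and 19.5 RPKM in AAV-Luc. The groups overlapped over most of their range, with the lowest value in AAV-Cre library 2. The means, 18.7 ± 3.78 and 20.8 ± 2.36 RPKM, gave a difference of -0.17 on the log2 scale (SE 0.14), which was not called (limma adjusted p = 0.308; exact permutation p = 0.4). Relative to the library median it was lower in AAV-Cre, at -0.58 (adjusted p = 0.0131). The antisense gene Gm15943 shares 2.67% of its exon bases. Of the pair most used as markers of muscle wasting, Trim63 was thus higher and Fbxo32 not called as deposited, and Fbxo32 lower and Trim63 not called after centring.

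Fbxo40, on chromosome 16 from 36963460 to 36990467, encodes a muscle F-box protein known to target the insulin receptor substrate Irs1. It measured 59.9, 51.3, 52.9 and 48.1 RPKM in AAV-Cre and 38.3, 40.4, 37.0 and 33.7 RPKM in AAV-Luc. The lowest AAV-Cre library stood clear of the highest AAV-Luc library, and this was the greatest rise of the 8 genes (log2 fold change 0.50, SE 0.08, limma adjusted p = 0.000486), falling to 0.09 after centring (adjusted p = 0.42). Fbxo31, on chromosome 8 from 121549440 to 121578806, is expressed in many tissues and is known from human cells as a receptor for cyclin D1. It measured 8.68, 7.42, 10.4 and 6.81 RPKM in AAV-Cre and 12.9, 13.8, 13.1 and 14.6 RPKM in AAV-Luc. All AAV-Cre values were below all AAV-Luc values, and the AAV-Cre libraries were the more spread. Its log2 fold change of -0.69 (SE 0.12, limma adjusted p = 0.000542; exact permutation p = 0.0286) was the deepest fall of the 8, at percentile 3.67 of all genes tested, and became -1.10 after centring (adjusted p = 8e-05). Groups did not overlap for 1 of the 8 genes in the lower direction and for 4 in the higher direction, beside 7.67% and 58.4% of all genes tested (66.1% in all). The opposite strand at Fbxo31 holds Gm20388, which shares no annotated exon base with it and was higher in AAV-Cre, at 891.2 ± 29.0 against 550.7 ± 44.8 RPKM.

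Asb2 encodes an ankyrin-repeat and SOCS-box receptor of Cul5 complexes, known for targeting filamins. It lies on chromosome 12 from 103321142 to 103356001 and was the most abundant of the 8 in AAV-Luc. It measured 110.8, 81.9, 106.9 and 80.1 RPKM in AAV-Cre and 136.8, 152.2, 106.7 and 134.6 RPKM in AAV-Luc. AAV-Luc library 3 lay just below AAV-Cre libraries 1 and 3, and the other AAV-Luc libraries were above all of AAV-Cre. The means were 94.9 ± 16.2 RPKM in AAV-Cre and 132.6 ± 18.9 in AAV-Luc (SD, n = 4 each). Asb2 fell by 0.48 on the log2 scale (SE 0.14, limma adjusted p = 0.01), while the exact permutation test over libraries gave p = 0.0857. After centring the value was -0.89 (adjusted p = 0.000419). The antisense gene Gm15523 lies across Asb2 with no shared exon base. Mdm2, on chromosome 10 from 117688875 to 117710758, is the RING ligase that holds down p53 in all cells. It measured 23.7, 20.9, 22.6 and 22.3 RPKM in AAV-Cre and 17.1, 16.5, 15.5 and 17.7 RPKM in AAV-Luc. The groups were well apart and each was narrow (log2 fold change 0.41, SE 0.07, limma adjusted p = 0.000399), and its centred value was 0.00 (adjusted p = 0.963), the median of all genes.

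The order of the genes by level differed between the groups. In AAV-Luc the mean RPKM ran from Asb2 (132.6) through Trim63 (84.2), Trim54 (49.0), Trim55 (44.4), Fbxo40 (37.4), Fbxo32 (20.8) and Mdm2 (16.7) to Fbxo31 (13.6). Of these neighbours only Trim54 and Trim55 had overlapping ranges. In AAV-Cre the order was Trim63 (116.7), Asb2 (94.9), Trim55 (56.7), Trim54 (53.7), Fbxo40 (53.04), Mdm2 (22.4), Fbxo32 (18.7) and Fbxo31 (8.32). There the ranges overlapped between Trim63 and Asb2, Trim55 and Trim54, Trim54 and Fbxo40, and Mdm2 and Fbxo32. Trim63 was above Asb2 in 4 of 4 AAV-Cre libraries and in 0 of 4 AAV-Luc libraries. Mdm2 was above Fbxo32 in all 4 AAV-Cre libraries, whereas Fbxo32 was above Mdm2 in all 4 AAV-Luc libraries.

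A ratio of 2 genes within a library does not depend on how that library was scaled, so it shows unequal change without the choice of centring. Each of the 28 pairs was tested over the 70 ways to assign libraries to groups, two-sided. In 16 pairs the groups did not overlap (exact p = 0.0286 each), and the p adjusted over the 28 pairs was then 0.05, which is at the threshold and not under it, so no pair was called. The share of such pairs among other genes was not computed, so 16 of 28 cannot be read as particular to these genes. The ratio of Trim63 to Asb2 was 1.23 in AAV-Cre and 0.637 in AAV-Luc, a log2 difference of 0.95 (SE 0.14). The ratio of Fbxo31 to Mdm2 was 0.381 against 0.821, a log2 difference of -1.11 (SE 0.12). Fbxo32 to Mdm2 went from 1.23 in AAV-Luc to 0.825 in AAV-Cre, a log2 difference of -0.58 (SE 0.16), and Fbxo32 to Trim63 had a log2 difference of -0.64 (SE 0.14). The 16 pairs include each pair of Asb2 or Fbxo31 with Trim63, Trim55, Trim54, Fbxo40 or Mdm2. Asb2 and Fbxo31 overlapped in their ratio to each other (log2 difference 0.21, SE 0.12, exact p = 0.171). So did the 6 pairs among Trim63, Trim55, Fbxo40 and Mdm2, whose log2 differences ran from -0.15 to 0.12, a result that does not show equal change.

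**Figure D3:**
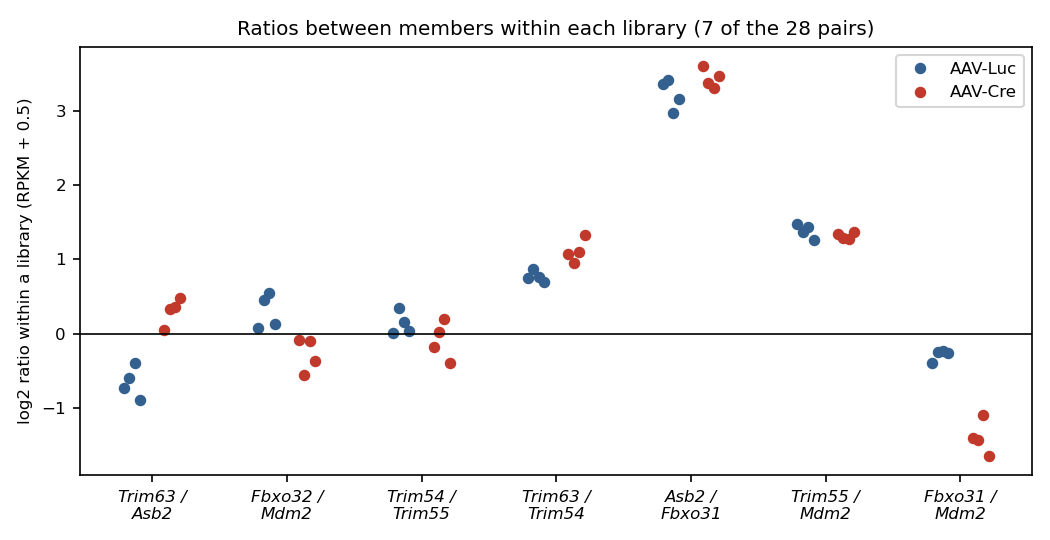
Log2 ratio of 2 genes within each library, on RPKM + 0.5, for 7 of the 28 pairs; each point is 1 library, and 0 marks equal levels. Trim63 to Asb2 and Fbxo32 to Mdm2 lie on opposite sides of 0 in the 2 groups, while Trim55 to Mdm2 and Asb2 to Fbxo31 overlap.

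Within the groups the genes were lower or higher together in some libraries. In AAV-Cre library 2 all 8 genes were below their group mean and in AAV-Cre library 4, 7 were, with median deviations of -0.13 and -0.12 on the log2 scale. In AAV-Cre libraries 1 and 3 only 1 gene was below the mean, with median deviations of 0.10 and 0.19. The median level of all tested genes moved by no more than 0.02 in these 4 libraries, and by -0.09 in AAV-Luc library 3, where 7 genes were below their group mean. The median deviation of 10 cardiomyocyte markers was 0.07, -0.07, 0.14 and -0.08 in AAV-Cre libraries 1 to 4, and that of 7 fibroblast markers -0.25, 0.11, -0.26 and 0.30. Within AAV-Cre, libraries 2 and 4, low in the ligase genes, were also low in cardiomyocyte markers and high in fibroblast markers. In AAV-Luc libraries 1 to 4 the cardiomyocyte markers deviated by -0.02, 0.14, -0.12 and 0.03, and the fibroblast markers by 0.08, -0.04, 0.01 and 0.02. AAV-Luc library 3 was thus low in cardiomyocyte markers with fibroblast markers near the mean, and AAV-Luc library 4, with 5 genes below the mean, was not low in cardiomyocyte markers. The part of these markers in the spread was not tested.

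**Figure D4:**
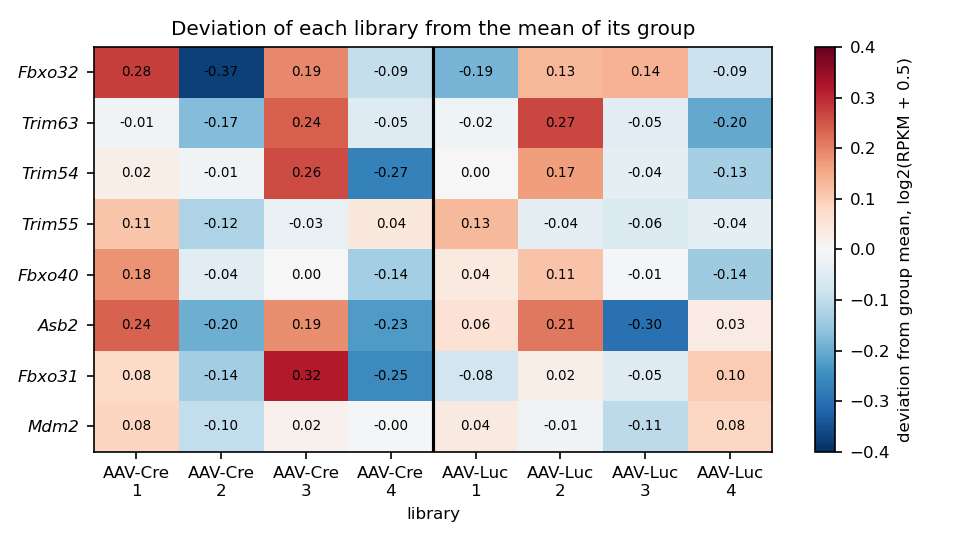
Deviation of each library from the mean of its own group, in log2(RPKM + 0.5), for each of the 8 genes; blue is below the mean and red above. All 8 genes are below the mean in AAV-Cre library 2 and 7 in AAV-Cre library 4.

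Markers of the cells in the ventricle moved between the groups too. The summed level of 10 cardiomyocyte markers was 15032 to 18146 RPKM in AAV-Cre and 16205 to 18334 in AAV-Luc, with 5 of 10 called higher (Tnnt2, Ldb3 and Actn2 first) and 3 lower (Tnni3, Mybpc3 and Pln) as deposited, and 0 higher and 6 lower after centring. As deposited, all 7 fibroblast markers were higher (6 after centring), with sums of 869.9 to 1290 against 359.4 to 383.0 RPKM. So were all 6 tested of 9 macrophage and blood cell markers (5 after centring), summing to 197.7 to 263.3 against 98.8 to 103.0, and 4 of 5 smooth muscle markers (4 after centring, with 1 lower), summing to 1362 to 1782 against 191.0 to 342.9. Of 6 endothelial markers 2 were higher and 0 lower as deposited (230.3 to 302.7 against 189.2 to 220.6), and 1 higher and 4 lower after centring. As deposited, 1 was higher when AAV-Cre library 1, 2 or 4 or AAV-Luc library 3 or 4 was left out, and 2 were lower without AAV-Cre library 2 and 3 without AAV-Luc library 3. Without AAV-Luc library 1, 3 endothelial markers were higher and 0 lower. Of 12 skeletal muscle markers 3 were tested and all 3 were higher (Mylpf, Tnni2 and Tnnt3, the last not called after centring), with sums of 13.3 to 27.1 against 2.60 to 4.04 RPKM. Their AAV-Luc means of 1.13, 1.16 and 0.79 RPKM were near the filter limit, so their passing it can owe to the AAV-Cre values. Without the filter 11 were tested, with 4 higher, 0 lower and a median log2 fold change of 0.03. The defining myosins Myh1, Myh2 and Myh4 stayed at or below 0.016 RPKM in every library, Myod1 at or below 0.021, and Myf5 was listed at 0 throughout. Of 5 atrial markers 4 were higher (3 after centring; 129.8 to 285.6 against 37.1 to 83.0), and Myl7 was uneven, at 112.9 RPKM in AAV-Cre library 3 and 26.2 in AAV-Luc library 2. Without these 2 libraries each of the 8 ligase genes kept its call, with log2 fold changes of 0.48 for Trim63, 0.35 for Trim55, 0.54 for Fbxo40, 0.40 for Mdm2, -0.48 for Asb2 and -0.79 for Fbxo31. The part of the other cell types in these values was not tested.

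Genes around the 8 ligases were followed in 11 lists of 214 genes, of which 204 were tested. Of these, 140 (68.6%) were higher and 18 (8.82%) lower as deposited, with a median log2 fold change of 0.40, and 43 and 60 after centring. These shares are close to those of all genes tested (64.4% and 8.87%, median 0.41), which are the background of each list count below, as 21.8% and 24.1% are after centring. The cullin machinery that carries the F-box and SOCS-box proteins was higher as deposited, with 17 of 18 tested genes called higher and 0 lower, also at an unadjusted p of 0.05 (7 and 3 after centring, median 0.54 as deposited). Skp1a, the adaptor that holds F-box proteins, measured 257.1 against 166.6 RPKM (log2 fold change 0.62, adjusted p = 8.25e-06), and Ddb1, the adaptor of Cul4, and Cul2 followed at 0.70 and 0.52. Cul2 was not called after centring (0.11, limma adjusted p = 0.203). Cul1 and Cul5, the scaffolds of the F-box and of the Asb2 complexes, had log2 fold changes of 0.37 and 0.56 as deposited and -0.04 and 0.15 after centring, where neither was called. Of 24 ubiquitin, E1 and E2 genes, 16 were higher and 2 lower (4 and 7 after centring). Ube2g2, an E2 of protein quality control, rose from 18.02 to 40.8 RPKM, and Ube2d2a and Ube2d3, of the E2 family that serves many RING ligases, had log2 fold changes of 0.72 and 0.55. Ube2d3 was not called after centring (0.145, limma adjusted p = 0.169). Ube2d1 and Ube2r2 fell, both by 0.24 on the log2 scale. As deposited, these 2 small falls rested on single libraries: only 1 was called without AAV-Cre library 2, and 0 without AAV-Cre library 4, AAV-Luc library 1 or AAV-Luc library 4. After centring, Ube2d1 and Ube2r2 were both called lower, at -0.65 each (limma adjusted p = 0.000243 and 0.000118). Of 20 deubiquitinases, 16 were higher and 1 lower (4 and 3 after centring). Uchl1 rose from 4.11 to 12.5 RPKM (1.48 on the log2 scale), Usp7, which removes ubiquitin from Mdm2 and p53, had 0.47, Usp47 had 0.65, and Usp2 fell from 12.6 to 7.66 RPKM (-0.70). Usp7 was not called after centring (0.07, limma adjusted p = 0.356), and Usp47 was at 0.24 (limma adjusted p = 0.043).

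Of 30 further ligases with a role in muscle, 24 were higher and 2 lower (5 and 6 after centring, median 0.51 as deposited). Nedd4, a HECT ligase, went from 78.2 to 156.3 RPKM (log2 fold change 0.99, adjusted p = 8.24e-07), and Pdzrn3 and Trim35 had 1.197 and 0.79, all 3 also called after centring. Trim72, the muscle membrane repair protein MG53, and Rnf207, a cardiac ligase, fell by 0.53 and 0.73 on the log2 scale, and the count of lower genes was 4 without AAV-Cre library 3. Of 14 tested of 17 other members of the Asb family, 7 were higher and 0 lower as deposited, also at an unadjusted p of 0.05. Their median was 0.19, and centring left 1 higher and 7 lower. Asb11 rose from 56.7 to 112.0 RPKM, while Asb2 was lower. Of 9 tested of 10 kelch adaptors of Cul3, 3 were higher and 2 lower (0 and 5 after centring). Klhl41, Klhl31 and Klhl40, muscle kelch proteins, had log2 fold changes of 0.58, 0.43 and 0.31 as deposited and were not called after centring, and Klhl33 fell from 5.72 to 1.74 RPKM (-1.46, adjusted p = 9.85e-05) and Klhl24 by 0.47.

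**Figure D5:**
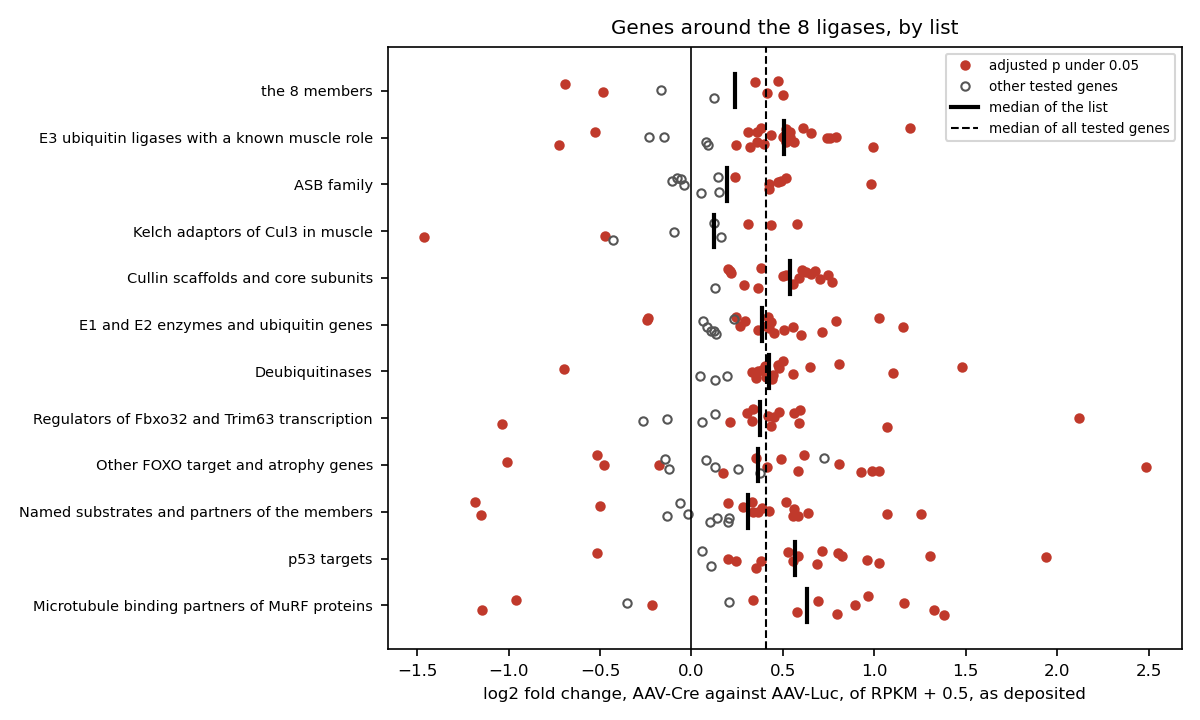
Log2 fold change of every tested gene of the 11 lists and of the 8 ligase genes, AAV-Cre against AAV-Luc, as deposited; filled points passed an adjusted p of 0.05 in limma, black bars are list medians and the dashed line is the median of all tested genes. The medians of the 8 ligases (0.24), the Asb family (0.19) and the kelch adaptors (0.12) lie left of the dashed line (0.41).

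Known regulators of Fbxo32 and Trim63 were called, as deposited, at shares near those of all genes tested. Of 18 tested of 20, 13 were higher and 1 lower (2 and 5 after centring). Among all genes 64.4% were higher and 8.87% lower (21.8% and 24.1% after centring). Ppargc1a, a coactivator of estrogen-related receptors that is known to restrain FOXO3 in muscle, was at 103.5 against 23.4 RPKM. Srf, the serum response factor, rose from 19.3 to 41.1 RPKM, a log2 fold change of 1.07 as deposited and 0.66 after centring. The glucocorticoid receptor gene Nr3c1 had 0.59 as deposited and 0.18 after centring, and Klf15, a glucocorticoid-induced factor known to activate both ligase genes, fell from 20.7 to 10.3 RPKM (-1.04, adjusted p = 0.00187). Foxo1 was higher as deposited (0.33) and not called after centring (-0.08). Foxo3 (-0.13) and Foxo4 (-0.27) were not called as deposited and were lower after centring (-0.54 and -0.68). Foxo6, near the filter limit at 1.35 against 0.87 RPKM, was called higher as deposited (0.43) and not called after centring (0.03). The count of lower regulators was 3 without AAV-Cre library 3. Of 22 other FOXO target and atrophy genes, 11 were higher and 4 lower (5 and 9 after centring). Mt2, a metallothionein, Bnip3l, a mitophagy receptor, and Ctsl, a lysosomal protease, had log2 fold changes of 2.48, 0.81 and 0.93, and Sesn1, Ddit4 and Gadd45a fell by 0.52, 1.01 and 0.48.

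Genes whose products the ligases act on or bind were uneven. Of 24, 14 were higher and 3 lower (2 and 9 after centring). The 3 that fell encode sarcomere proteins, Myl2 (1885 against 4298 RPKM), Tnni3 (1495 against 3321) and Mybpc3 (424.7 against 603.1). Of the same list, Tnnt2 and Ttn were called higher as deposited (0.56 and 0.39) and not called after centring. Myh6, Myh7 and Myoz2 were not called as deposited, and Myh6 and Myoz2 were lower after centring (-0.47 and -0.43). Pdlim5, of the Z-disc, and Nbr1, a titin-linked autophagy receptor, had log2 fold changes of 1.25 and 0.42. Nbr1 was not called after centring (0.01, limma adjusted p = 0.881). Irs1, the target of Fbxo40, was called higher as deposited (0.20, adjusted p = 0.0367) and lower after centring (-0.21, adjusted p = 0.0426). Of 14 tubulin and microtubule genes, 9 were higher and 3 lower (7 and 4 after centring). As deposited, Tubb6, Tuba1b and Tubb2a had log2 fold changes of 0.90, 1.16 and 1.32 and Tuba4a, Tuba8 and Ttl fell by 1.14, 0.96 and 0.22. All of these kept direction and call after centring, where the falls were -1.55, -1.37 and -0.62. The groups overlapped for Ttl. As deposited, the count of lower genes was 2 without AAV-Cre library 2, 3 or 4 or AAV-Luc library 1, 2 or 4, and 4 without AAV-Luc library 3. Of 18 tested of 20 targets of p53, 15 were higher and 1 lower (8 and 4 after centring, median 0.57 as deposited). Perp, a desmosome protein, rose from 57.5 to 223.0 RPKM, Phlda3 and Ddb2 had 1.304 and 0.80, and Sesn1 was the one that fell. Trp53, which encodes p53, and Mdm4, the partner of Mdm2, had log2 fold changes of 0.56 and 0.52 as deposited and 0.15 and 0.11 after centring, where they were not called.

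The genes with the profile over 8 libraries nearest to each ligase were found by the root mean square distance of mean-centred log2 values, among 8094 other genes that averaged 5 RPKM or more. For Trim63 these were Dhrs3 (distance 0.06) and Pcgf1 (0.08), and for Trim55 they were Slain2 and Fermt2 (0.04 each). For Trim54 they were BC029722 (0.05) and Neurl2 (0.06), and for Fbxo40 Wnk1 (0.04) and Ambra1 (0.05). Mdm2 was nearest to Crkl (0.03) and Fermt2 (0.04), Asb2 to Slc4a3 and Dok7 (0.09 each), and Fbxo31 to Nipal3 and Ppifos (0.07 each). Fbxo32 had no neighbour as close, with Ryr2 and Dsg2 at 0.14 each. Fermt2 was shared by Trim55 and Mdm2, whose own ratio varied little, at 2.50 in AAV-Cre and 2.61 in AAV-Luc (log2 difference -0.06, SE 0.05, exact permutation p = 0.314, 28 pairs, adjusted p = 0.367).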

How the data were processed

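Per the labels' protocols, RNA of both ventricles was enriched for poly(A), sequenced as paired ends on 1 lane, and prepared with kits of which both a TruSeq and a NEBNext one are named. The deposited values are RPKM per gene, made by the authors. The genome was mm10 and the tools were STAR, edgeR, Partek 6.6 and FastQC 0.11, per the submitters' processing notes. The roles of the tools, the annotation, how genes were measured in length and whether strand was used are not given in these sources. RPKM holds no counts, so no count model was fitted. The 8 value columns name a group and no sample, and served as 4 unlinked replicates each. The deposited group means equalled the column means, and libraries shared no identical value above 0.

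The test was limma 3.58.1 (R 4.3.3) on log2(RPKM + 0.5), with Benjamini-Hochberg adjustment at 0.05 over the 16385 genes that reached 1 RPKM in 4 or more libraries. The pseudocount shrinks fold changes of low genes. Single genes and ratios also had two-sided exact permutation tests over 70 arrangements. In data simulated on these 16385 genes, the test found 12% of 50 genes altered by 0.25 on the log2 scale, 38% of 50 altered by 0.5, 84% of 50 altered by 1 and 100% of 50 altered by 2, with 2 false calls. Far fewer genes were altered there than were called in the data (73.3%), which makes the adjustment stricter in the simulation. The shares found therefore do not give the power of the test as reported here. Positions and overlaps came from GENCODE M21 and promoter windows from RefSeq. Depth was read from low RPKM values, of which 99.2 to 99.5% were whole multiples of a step within 0.1. Of the multiples, 73.3 to 78.0% were even, so reads of a pair were taken as counted singly and no counting interval is given. The members and lists were chosen with earlier results of these data known. Named beside the 8 genes were up to 3 called genes per list and direction with the smallest p, and the 2 nearest profiles of each member. Cul1, Cul5, Foxo1, Foxo3, Foxo4, Foxo6, Irs1, Trp53 and Mdm4 were named after their values were seen, for their known link to a member. So were Tnnt2, Ttn, Myh6, Myh7 and Myoz2 among the substrates and partners. Alternatives were other pseudocounts, filters, scalings and variance priors, library weights and left-out libraries. Python 3.11.15, numpy 2.4.6, pandas 2.3.3 and matplotlib 3.10.9 were used.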

Additional observations from a re-analysis of the deposited data

Results flagged for a closer look

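For Trim55, 1 AAV-Luc library stood apart from the other 3. AAV-Luc library 1 measured 48.5 RPKM against 42.6 to 43.3 in the rest, a gap of 0.891 of the range of the group. It was the single such case in 16 groups of 4 libraries examined, and chance gives about 1 in 20. Without that library the call for Trim55 held.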

How the results depend on the processing

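The scaling decided most. Of 144 values of the 8 genes under 18 alternatives, 130 were counted as unchanged, and the other 14 came from the 3 rescalings. A value uncalled in both fits counted as unchanged even where its direction turned, as for Trim54 with median centring (0.12 to -0.28). With median centring 0 members were higher, Trim55 turned to -0.06, Trim63, Fbxo40 and Mdm2 lost their call and Fbxo32 was called lower. With quantile normalization 0 members were higher, and with mitochondrial and haemoglobin genes left out and the rest rescaled 1 was (Fbxo40). Fbxo32 was lower in both (-0.55 and -0.44). The falls of Asb2 and Fbxo31 held under all 18. Over all genes, 3810 were higher and 3838 lower with quantile normalization, 3578 and 3949 with centring, 6243 and 2674 after the rescaling, and 6607 higher with a mean of at least 5 RPKM, where fewer genes were tested. The cause of the shift between scalings was not tested. For the 11 lists the counts were 49 and 51, 43 and 60, and 77 and 37 in the same order of scalings. Leaving out single libraries gave 9909 to 10374 genes higher and 1306 to 1571 lower, and 4 and 2 members throughout. For pairs of members the smallest exact permutation p with 4 against 4 libraries is 0.0286, and the 16 pairs at that value had an adjusted p of 0.05. That adjusted p depends on how many pairs reach the smallest p, so no stability is read from it. No paired analysis was possible because the columns carry no sample or replicate number. The labels of the columns, unknown gene lengths, unknown use of strand and 4 libraries per group limit these values.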

Other observations

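Transcripts annotated across the ligase genes gave rows of their own. Gm15523, antisense to Asb2, measured 137.3 ± 27.1 RPKM in AAV-Cre and 179.5 ± 24.1 in AAV-Luc (SD, n = 4 each), a log2 difference of -0.40 with limma adjusted p = 0.0307. It shares no annotated exon base with Asb2, yet its ratio to Asb2 was 1.28 to 1.504 in all 8 libraries. Gm15469, antisense to Trim54, measured 29.4 ± 3.90 against 27.3 ± 3.57 RPKM and kept a ratio to Trim54 of 0.526 to 0.580. Gm15943, antisense to Fbxo32 and sharing 2.67% of its exon bases, measured 9.63 ± 2.41 against 13.0 ± 1.81 RPKM, lower by limma (adjusted p = 0.0385), with a ratio to Fbxo32 of 0.422 to 0.685. BC002189, inside an intron of Trim55, measured 6.80 ± 0.78 against 5.43 ± 1.92 RPKM and did not pass (limma adjusted p = 0.144). Without known use of strand, these rows and the ligase genes are uncertain as separate genes where their exons meet. Gm15523 and Asb2, which share no annotated exon base in GENCODE, are uncertain too, because the annotation used by the authors is not given. The same limit holds for Fbxo31 and Gm20388 on its opposite strand, described above, whose ratio to Fbxo31 was 37.3 to 128.3. Whether the same reads entered both rows of such a pair was not tested.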
